A study of Homo sapiens with 46 samples.

Results

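CLK1, CLK2, CLK3 and CLK4 are the CDC2-like kinases, nuclear kinases that phosphorylate the serine- and arginine-rich (SR) splicing factors. They were taken by symbol as 4 of the 21166 genes with an Ensembl identifier in the tables, with every assembled transcript listed under each symbol and the sum of those transcripts per gene. The RNA came from H1, a human pluripotent stem cell line (hPSC) in long use, and from ectoderm, endoderm and mesoderm cells made from H1 in culture. Each cell type was separated into chromatin, nucleoplasm (nuclear RNA not bound to chromatin), whole nucleus and cytoplasm, which gave 46 libraries in 16 groups, of which 15 hold 3 libraries and mesoderm nucleoplasm holds 1. The question posed here is where the spliced and the intron-holding RNAs of the 4 kinases were found, and how their levels differed between the cell types.

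By the growth protocols in the labels, H1 was kept on Matrigel in mTeSR1. Endoderm was made with WNT3A and Activin A, ectoderm with A83-01, PNU-74654 and Dorsomorphin in knockout serum replacement, and mesoderm with VEGF, BMP4 and bFGF plus Activin A for the first 24 h, and the derived cells were collected after 5 days. All groups come from the 1 line H1, no label names a genetic change, and all were fractionated in buffers with α-amanitin, an inhibitor of RNA polymerase II. The series text speaks of actinomycin D, but no sample label names it. The nucleus columns carry a code that was read as nucleus because no other group was left for it. Nothing says that replicates came from separate cultures, so p-values measure the spread between these libraries, which may be technical.

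As background, a CLK protein autophosphorylates, collects in nuclear speckles and releases SR proteins into splicing by phosphorylating them. CLK1 and CLK4 transcripts are known to hold the introns around exon 4 in part of their nuclear RNA. Such polyadenylated RNAs with unspliced introns that stay in the nucleus are called detained-intron transcripts, and they can be spliced later when CLK activity falls. Skipping or interrupting the kinase frame leaves a product without an active kinase domain.

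The annotated gene models show which introns are at issue (GENCODE release 29, GRCh38). CLK1 (ENSG00000013441) lies at chr2:200853009-200864744 on the minus strand, CLK2 (ENSG00000176444) at chr1:155262868-155278491 on the minus strand, CLK3 (ENSG00000179335) at chr15:74598500-74645414 on the plus strand and CLK4 (ENSG00000113240) at chr5:178602664-178630615 on the minus strand. The transcript CLK1-210 (3208 nt, 11 exons) holds intron 3 (1022 bp, chr2:200860216-200861237) and intron 4 (378 bp, chr2:200859747-200860124) of the coding transcript CLK1-201 (1888 nt, 13 exons). CLK4-203 (3462 nt, 12 exons) holds the matching intron 3 (1121 bp, chr5:178617435-178618555) and intron 4 (395 bp, chr5:178616949-178617343) of CLK4-201 (2568 nt). CLK3-203 (3787 nt, 12 exons) holds intron 3 (1894 bp, chr15:74620226-74622119) of CLK3-202 (2621 nt, 13 exons). For CLK2 no annotated transcript of that kind was found among its 7. Whether its longer rows hold an intron is not known here, and they are described only by length.

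The junction sequences of these introns are shown because the introns define the annotated intron-holding transcripts named here. Exon bases are in capitals, intron bases in lower case, each 5′ to 3′ on the gene's strand, read from the GENCODE transcripts that hold the introns (GRCh38) at chr2:200861198-200861257, chr2:200860085-200860255, chr2:200859727-200859786, chr15:74620206-74620265, chr15:74622080-74622139, chr5:178618516-178618575 and chr5:178617304-178617474 in this order.
CLK1 start of intron 3: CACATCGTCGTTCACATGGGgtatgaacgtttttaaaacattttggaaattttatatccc
CLK1 exon 4 between introns 3 and 4: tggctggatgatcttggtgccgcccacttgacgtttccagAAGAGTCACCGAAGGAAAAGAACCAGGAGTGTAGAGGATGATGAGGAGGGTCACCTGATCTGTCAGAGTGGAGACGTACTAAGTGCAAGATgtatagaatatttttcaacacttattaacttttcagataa
CLK1 end of intron 4: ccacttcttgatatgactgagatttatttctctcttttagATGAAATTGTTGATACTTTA
CLK3 start of intron 3: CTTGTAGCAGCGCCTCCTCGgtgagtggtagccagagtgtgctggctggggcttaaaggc
CLK3 end of intron 3: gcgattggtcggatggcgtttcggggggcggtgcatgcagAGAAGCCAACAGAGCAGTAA
CLK4 start of intron 3: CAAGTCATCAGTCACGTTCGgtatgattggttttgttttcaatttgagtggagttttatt
CLK4 exon 4 between introns 3 and 4: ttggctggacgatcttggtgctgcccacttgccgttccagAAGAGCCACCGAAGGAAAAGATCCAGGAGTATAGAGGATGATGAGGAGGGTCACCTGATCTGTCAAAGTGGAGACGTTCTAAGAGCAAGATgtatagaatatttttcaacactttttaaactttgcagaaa

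Exon 4 is 91 nt long in both CLK1 and CLK4, and 85 of the 91 positions (93.4%) are identical. When CLK1-210 was read in the frame of CLK1-201, 131 codons preceded a stop codon that begins at base 4 of intron 3, against 484 codons in CLK1-201. In CLK4-203 the frame closed after 76 codons, in an exon sequence upstream of intron 3, against 481 codons in CLK4-201.

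The tables do not resolve the 4 genes equally. There are 10 transcript rows of these genes among 32819 for hPSC, 23 of 54325 for ectoderm, 12 of 30409 for endoderm and 16 of 36407 for mesoderm. CLK4 has no row in the hPSC and endoderm tables and is described only in ectoderm and mesoderm. CLK1 has a single row in hPSC, ectoderm and endoderm. In hPSC and ectoderm CLK1 reads, spliced or not, could thus be counted only on the row matched to CLK1-210. Reads that fit only the spliced form may be missing from that row. The CLK1 row split into CLK1-201 and CLK1-210 in mesoderm and in the combined assembly, which was analysed for its ectoderm libraries and holds 30 CLK rows of 90397. The kit is not stated to keep strand, so reads of overlapping genes cannot be told apart from those of the kinases: HCN3 overlaps CLK2 over 909 bp and EDC3 overlaps CLK3 over 14857 bp, both on the opposite strand.

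Library totals ran from 4990408 to 21298678 counts, and levels are given as CPM, the usual share of a library total, with totals scaled by the trimmed mean of M-values (TMM). With shares, fewer cells of a type and less RNA per cell cannot be told apart. Fraction labels were not borne out by every reference RNA. MALAT1, a nuclear RNA, was higher in the cytoplasm than in the nucleus libraries of hPSC (mean 232.5 against 85.68 CPM) and ectoderm (1642 against 200.4 CPM), and its nucleoplasm mean was above both in each cell type (872.3 to 1947 CPM). Mitochondrial transcripts took 9.504% to 13.89% of nucleus counts in hPSC, ectoderm and endoderm, against 0.436% to 1.291% of cytoplasm counts there. In mesoderm the order was the other way round, with 6.789% in the cytoplasm and 1.256% in the nucleus. Of the markers of each cell type, 5 of 6 for hPSC, 5 of 6 for ectoderm, 6 of 6 for endoderm and 2 of 8 for mesoderm had their highest cytoplasmic mean in that cell type, and in mesoderm TBXT was at 0.1379 CPM and KDR had no row. The part of these differences in the results was not tested, and "nucleus" and "mesoderm" stand below for the libraries so labelled. Scaling by total counts alone moved the cytoplasm-to-nucleus median of all genes by 0.70 in endoderm, 0.35 in ectoderm, 0.07 in hPSC and -0.10 in mesoderm on the log2 scale, and the changes below are those after TMM scaling.

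Per length (TPM), CLK2 was the most abundant of the 3 tabulated kinases in hPSC cytoplasm, at 40.8 ± 9.45 TPM (SD, n = 3), above CLK3 at 14.5 ± 0.948 and CLK1 at 7.32 ± 1.3 TPM, with no overlap between the 3 genes. In ectoderm cytoplasm CLK3 stood at 44.9 ± 7.68 TPM, CLK1 at 31.4 ± 6.75 TPM, CLK2 at 24.7 ± 4.40 TPM and CLK4 at 10.0 ± 2.20 TPM. The place of CLK1 in that order depended on the assembly. In the combined assembly, on the same libraries, CLK1 was at 67.7 ± 14.7 TPM, above CLK3 at 41.1 ± 8.32 TPM, without overlap. The CLK1 levels per length in hPSC and ectoderm rest on the single row matched to CLK1-210, and those in endoderm on the single row of its own assembly. In endoderm cytoplasm the order was CLK2 at 37.8 ± 1.37, CLK1 at 26.1 ± 3.23 and CLK3 at 16.6 ± 1.09 TPM, without overlap. Mesoderm cytoplasm held CLK1 at 35.7 ± 3.56 and CLK2 at 30.5 ± 1.47 TPM, whose ranges overlapped, then CLK3 at 24.4 ± 1.60 and CLK4 at 7.65 ± 1.44 TPM. CLK4 had the lowest mean per length in the cytoplasm of both cell types in which it was tabulated, and in the combined assembly too (8.36 ± 2.16 TPM).

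**Figure D1:**
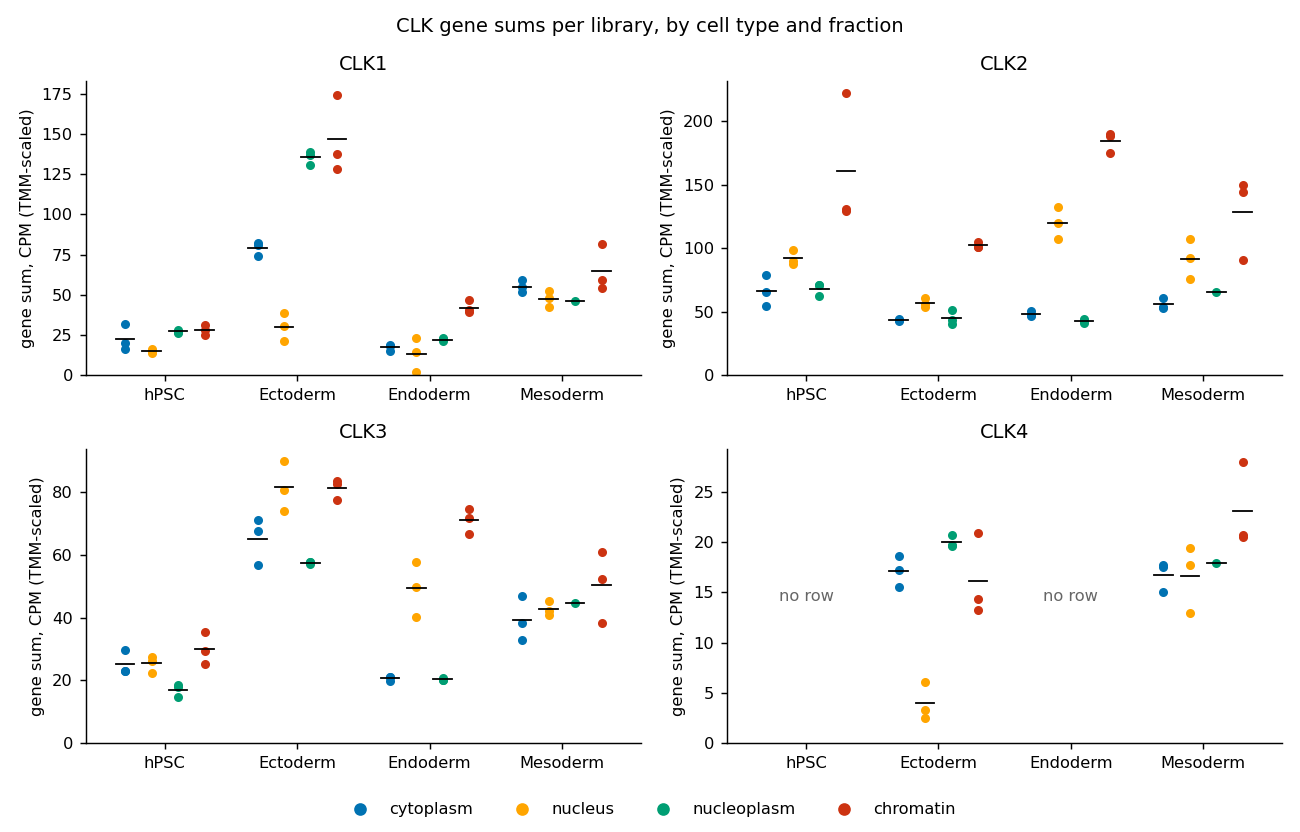
Gene sums of CLK1, CLK2, CLK3 and CLK4 in CPM (TMM-scaled, linear axis from 0) for each library, by cell type on the horizontal axis and by fraction in colour; black bars are group means. The CLK2 chromatin libraries of endoderm sit between 174.8 and 190.2 CPM, above every other CLK2 endoderm library, and CLK4 has no row in hPSC and endoderm.

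Between cytoplasm and nucleus, CLK2 was lower in the cytoplasm in all 4 cell types, whereas CLK1 was higher there in hPSC and ectoderm and CLK4 in ectoderm. Across the 14 tests of gene sums, 9 were called at an adjusted p under 0.05 (edgeR quasi-likelihood test, adjusted over all genes of the table), 3 higher and 6 lower in the cytoplasm. Among all genes tested, 65.4% were called for hPSC, 53.7% for ectoderm, 69.8% for endoderm and 63.3% for mesoderm, so a call of this kind was common. The share called higher in the cytoplasm was 35.0%, 27.2%, 34.4% and 31.8%, and the share called lower 30.4%, 26.5%, 35.5% and 31.5%, in the same order.

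On the TMM-scaled CPM scale the cytoplasm and nucleus values of CLK2 did not overlap in any of the 4 cell types. In endoderm CLK2 stood at 46.54, 47.51 and 51.01 CPM in cytoplasm and at 107.1, 132.5 and 120.2 CPM in nucleus, a log2 change of -1.31 ± 0.126 (SE, adjusted p = 3.09e-07). Mesoderm CLK2 was at 53.98, 53.15 and 60.48 CPM in cytoplasm and 92.2, 107.5 and 75.76 CPM in nucleus (log2 -0.72 ± 0.202, adjusted p = 0.00892). In ectoderm the cytoplasmic values of 42.75, 43.51 and 44.5 CPM lay below the nuclear 55.82, 60.56 and 53.49 CPM (log2 -0.38 ± 0.104, adjusted p = 0.00809). That ectoderm call did not hold without cytoplasm replicate 1 (adjusted p = 0.0646) or nucleus replicate 2 (0.0513), and the change was -0.03 (adjusted p = 0.835) with total counts and -0.06 (0.834) by limma on log2(TPM + 1). In hPSC CLK2 was at 79.2, 54.49 and 65.85 CPM in cytoplasm and 87.64, 98.76 and 90.27 CPM in nucleus (log2 -0.48 ± 0.195, adjusted p = 0.046), a call lost on leaving out 5 of the 6 libraries in turn, with adjusted p up to 0.178. It was also lost with total counts (0.0765) and by limma (0.0847).

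CLK3 was lower in the cytoplasm in endoderm, and in ectoderm its direction depended on the scaling. In endoderm CLK3 was at 21.25, 19.71 and 21.25 CPM in cytoplasm and 40.28, 49.91 and 57.71 CPM in nucleus, and fell by 1.25 ± 0.148 on the log2 scale (adjusted p = 2.57e-06). In ectoderm it was at 56.62, 67.58 and 71.05 CPM in cytoplasm against 74.08, 89.97 and 80.53 CPM in nucleus (log2 -0.33 ± 0.109, adjusted p = 0.0221), but the change was 0.02 with total counts and 0.006 on log2(TPM + 1), and the call was lost without cytoplasm replicate 1 (-0.18, adjusted p = 0.234) or nucleus replicate 2 (-0.18, 0.167). The hPSC value was -0.01 (adjusted p = 0.947) and the mesoderm value -0.12 ± 0.188 (adjusted p = 0.591). By limma on log2(TPM + 1) the mesoderm value was -0.95 (adjusted p = 0.00127), where the median of all genes was -0.82.

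CLK1 in ectoderm stood at 80.8, 74.28 and 82.34 CPM in cytoplasm and 30.43, 21.38 and 38.5 CPM in nucleus, without overlap, and rose by 1.40 ± 0.178 (adjusted p = 3.36e-05). CLK4 in ectoderm, at 18.57, 15.51 and 17.19 CPM in cytoplasm and 3.266, 2.543 and 6.068 CPM in nucleus, was higher by 2.09 ± 0.267 (adjusted p = 3.44e-05). In the ectoderm and the hPSC libraries MALAT1 was also higher in the cytoplasm, and its part in these results was not tested. CLK1 in hPSC was at 31.73, 20.33 and 16.18 CPM against 16.71, 14.82 and 13.98 CPM (log2 0.57 ± 0.205, adjusted p = 0.0253). Cytoplasm replicate 1 stood apart there, and without it the change was 0.27 (adjusted p = 0.14). The hPSC CLK1 call was also lost without nucleus replicate 2 (0.0656) or 3 (0.0818), and by limma the change was 0.11 (0.573). In endoderm the CLK1 nucleus values were 2.003, 23.03 and 14.52 CPM, with replicate 1 far below the others, and the change of 0.41 ± 0.45 was not called (adjusted p = 0.431), but reached 1.07 (adjusted p = 0.0445) without nucleus replicate 2. In mesoderm CLK1 changed by 0.21 ± 0.169 (adjusted p = 0.292) and CLK4 by 0.009 ± 0.195 (adjusted p = 0.974), while on log2(TPM + 1) these values were -0.57 and -0.81.

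Within the nucleus, CLK2 and CLK3 were higher on chromatin than in nucleoplasm in every cell type with replicates of both, while the call of CLK1 depended on the test and CLK4 was not called by edgeR. Of 10 gene-sum tests 6 were called by edgeR, all higher on chromatin, where 30.5% of all genes were called for hPSC, 44.1% for ectoderm and 53.5% for endoderm, and 17.1%, 18.5% and 22.9% were called higher. In endoderm CLK2 was at 174.8, 190.2 and 187.9 CPM on chromatin and at 44.72, 42.63 and 41.6 CPM in nucleoplasm (log2 2.10 ± 0.130, adjusted p = 1.61e-08), and CLK3 at 66.63, 71.79 and 74.62 against 20.14, 20.13 and 20.8 CPM (log2 1.80 ± 0.151, adjusted p = 1.91e-07). The groups were far apart for both genes. In ectoderm CLK2 rose by 1.17 ± 0.104 (adjusted p = 8.05e-06) and CLK3 by 0.50 ± 0.109 (adjusted p = 0.00257). In hPSC CLK2 chromatin values were 129.4, 131.0 and 222.4 CPM, replicate 3 standing above the others, against 71.06, 70.98 and 62.54 CPM in nucleoplasm (log2 1.24 ± 0.196, adjusted p = 0.000764), and CLK3 rose by 0.82 ± 0.167 (adjusted p = 0.00328). By edgeR the CLK1 change was 0.04 for hPSC (adjusted p = 0.89), 0.12 for ectoderm (adjusted p = 0.609) and 0.92 ± 0.443 for endoderm (adjusted p = 0.0942). The endoderm CLK1 values were 46.66, 39.1 and 40.49 CPM on chromatin and 21.27, 22.59 and 22.94 CPM in nucleoplasm, without overlap, and the change was 1.04 (adjusted p = 1.9e-06) when only those libraries were fitted and 1.50 (0.0373) with total counts. By limma on log2(TPM + 1) CLK1 was higher on chromatin in hPSC by 0.57 (adjusted p = 0.00724), in ectoderm by 0.85 (0.0072) and in endoderm by 1.53 (0.037). The median of all genes was itself 0.466, 0.484 and 0.397 on that scale in the same order, and 0.464 in endoderm with total counts. Ectoderm CLK4 changed by -0.31 ± 0.234 (adjusted p = 0.307) by edgeR. The mesoderm nucleoplasm library has no replicate and entered no test of this comparison.

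Chromatin was also set against cytoplasm, a comparison that uses the same chromatin libraries. Of 14 gene-sum tests 8 were called by edgeR, all higher on chromatin, where 63.5% of all genes were called for hPSC, 60.8% for ectoderm, 73.0% for endoderm and 66.4% for mesoderm, and 35.2%, 29.0%, 37.7% and 33.9% were called higher. CLK2 was higher on chromatin in all 4 cell types, by 1.28 ± 0.197 for hPSC (adjusted p = 8.06e-05), 1.23 ± 0.104 for ectoderm (5.52e-07), 1.93 ± 0.128 for endoderm (6.26e-09) and 1.20 ± 0.204 for mesoderm (0.000342). CLK3 rose by 1.78 ± 0.149 in endoderm (adjusted p = 6.32e-08) and 0.32 ± 0.108 in ectoderm (0.0208). CLK1 rose by 0.89 ± 0.171 in ectoderm (adjusted p = 0.000501), from the cytoplasmic values above to 137.6, 174.2 and 128.3 CPM, and by 1.25 ± 0.44 in endoderm (0.0187). The endoderm CLK1 call was lost without chromatin replicate 1 (adjusted p = 0.056) or cytoplasm replicate 3 (0.0647), and with total counts (0.0931). Mesoderm CLK4 changed by 0.45 ± 0.195 (adjusted p = 0.0593). In hPSC the CLK1 value of 0.32 (adjusted p = 0.177) became 0.62 (adjusted p = 0.00369) without cytoplasm replicate 1. CLK1 and CLK3 in hPSC and mesoderm were not called by edgeR. They were called higher on chromatin by limma on log2(TPM + 1), with values of 0.98 to 1.14, and with total counts, with values of 0.40 to 0.55. There the median of all genes was itself 0.711 for hPSC and 0.853 for mesoderm by limma, and 0.238 and 0.203 with total counts.

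**Figure D2:**
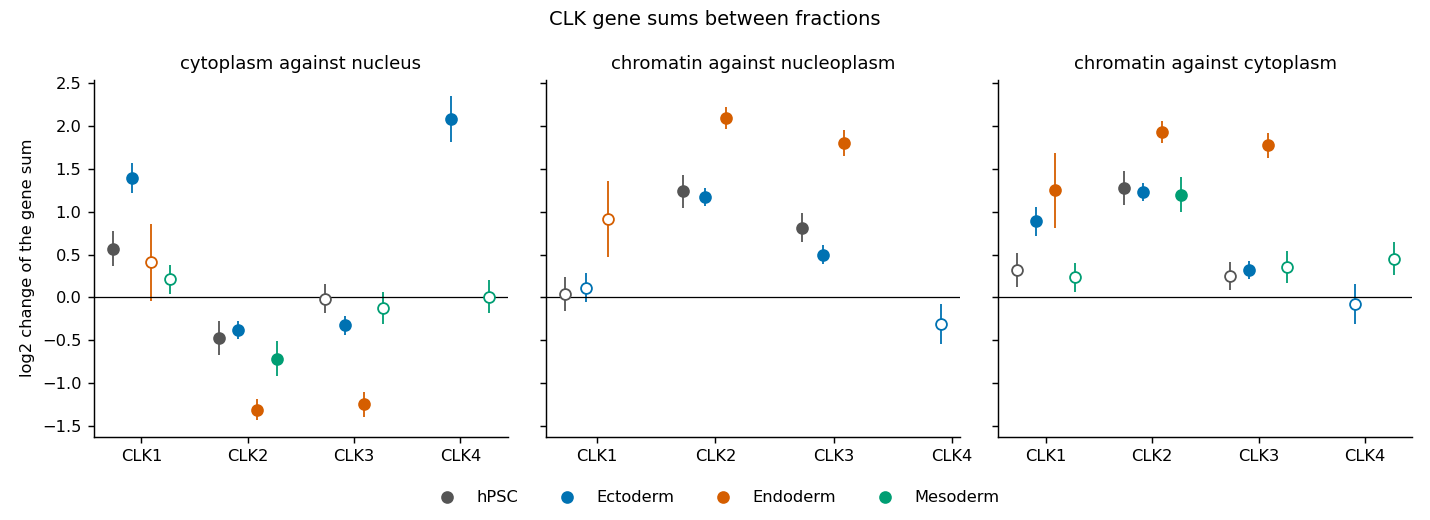
Log2 change of each gene sum (vertical axis) for CLK1, CLK2, CLK3 and CLK4 in 3 comparisons of fractions, by cell type in colour; bars span 1 standard error either way and filled points were called. CLK2 lies below 0 in all 4 cell types between cytoplasm and nucleus, from -0.38 in ectoderm to -1.31 in endoderm, and above 0 in both chromatin panels.

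To see whether longer rows, not all of them known to hold introns, had their own distribution, transcript rows were sorted by effective length. It was read back from the ratio of deposited count to TPM and divided by that of the gene's most counted protein-coding row. A row of at least 1.3 times that length is called long here, a limit chosen after the values were seen, and shares of long rows are described without a test. CLK1-210 was 1.936 times as long as CLK1-201 in mesoderm and 1.923 times in the combined assembly, and CLK3-203 was 2.224 times as long as its reference row in endoderm. The long CLK2 rows carry no Ensembl identifier, so which sequence they hold is not known here.

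Long rows took a larger share of each gene's counts on chromatin than in cytoplasm in every gene and cell type that had such rows. For CLK3 in endoderm the share was 30.27%, 25.71% and 25.28% in cytoplasm, 77.23%, 76.92% and 84.39% in nucleus, 66.67%, 55.46% and 54.67% in nucleoplasm, and 97.01%, 94.1% and 89.68% on chromatin. CLK2 in endoderm ran from 4.462%, 4.11% and 7.549% in cytoplasm to 54.14%, 65.79% and 49.27% on chromatin. In hPSC the mean CLK2 share was 12.1% ± 1.43 for cytoplasm, 39.5% ± 3.95 for nucleus, 26.2% ± 2.97 for nucleoplasm and 45.4% ± 7.28 for chromatin (SD, n = 3), and in the same order the CLK3 share was 25.6% ± 3.58, 33.5% ± 0.925, 40.4% ± 3.55 and 50.2% ± 8.01. In ectoderm the CLK2 share was alike in cytoplasm (17.3% ± 3.04) and nucleus (17.4% ± 6.68) and reached 49.7% ± 2.38 on chromatin, and CLK3 went from 20.0% ± 2.50 in cytoplasm to 64.7% ± 2.26 on chromatin. In mesoderm the chromatin shares were 48.4% ± 6.58 for CLK2 and 53.6% ± 10.6 for CLK3, against 9.26% ± 0.396 and 11.9% ± 3.66 in cytoplasm.

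CLK4 also had a larger share of long rows on chromatin than in cytoplasm, at lower counts. Its long rows took 9.76% ± 1.73 in cytoplasm, 15.1% ± 5.27 in nucleus, 25.1% ± 4.20 in nucleoplasm and 39.8% ± 4.78 on chromatin in ectoderm. In mesoderm the CLK4 chromatin shares were 23.23%, 50.79% and 55.11%, replicate 1 being lowest, and the cytoplasmic shares 10.51%, 15.19% and 11.83%. The single mesoderm nucleoplasm library had low shares in all 4 genes, 12.6% for CLK1 (95% Wilson interval 10.19% to 15.49%, counting error only), 10.99% for CLK2, 7.904% for CLK3 and 10.78% for CLK4.

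**Figure D3:**
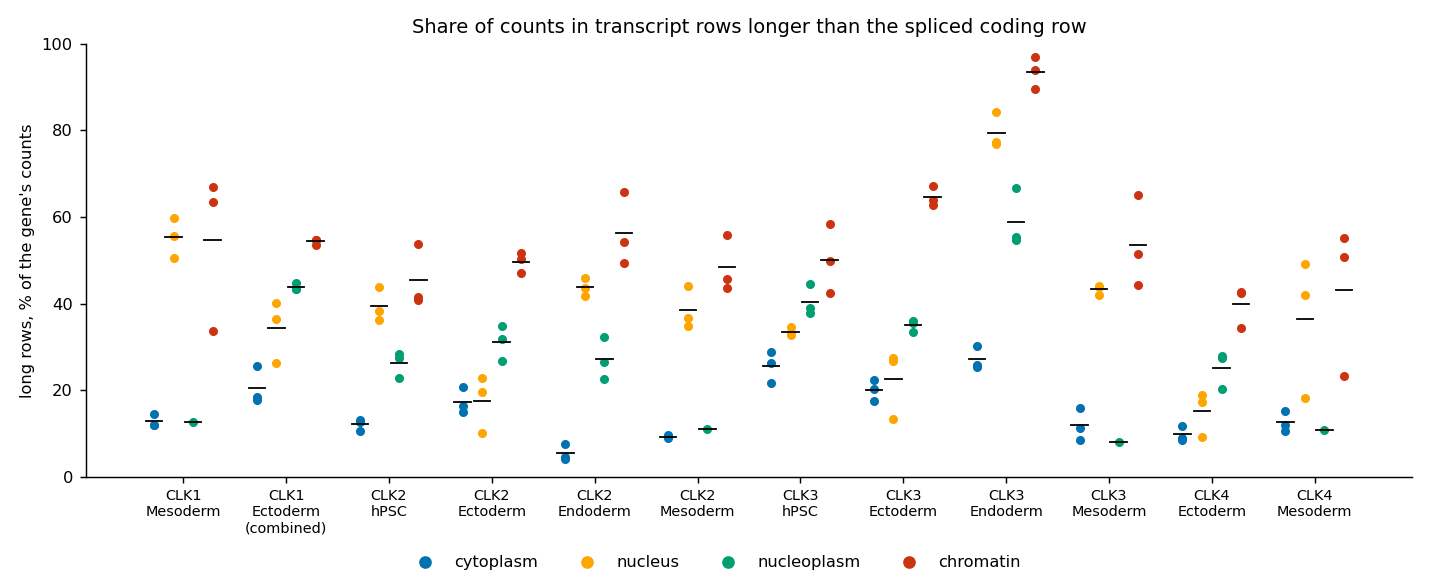
Share of each gene's counts in transcript rows of at least 1.3 times the reference length (vertical axis, percent), per library, for each gene and cell type with such rows; colours are fractions and black bars group means. The chromatin libraries lie above the cytoplasm libraries in each gene and cell type shown, for example 89.68% to 97.01% against 25.28% to 30.27% for CLK3 in endoderm.

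For CLK1, whose introns 3 and 4 are printed above, both forms could be followed in mesoderm. The intron-holding CLK1-210 was at 7.519, 7.062 and 6.531 CPM in cytoplasm, 31.41, 24.24 and 23.56 CPM in nucleus, 5.854 CPM in the 1 nucleoplasm library and 27.43, 39.75 and 34.46 CPM on chromatin. It was low in every cytoplasm library and high in every nucleus and chromatin library, with a log2 change of -1.67 ± 0.224 between cytoplasm and nucleus (adjusted p = 0.00127, over all transcript rows) and 1.87 ± 0.225 between chromatin and cytoplasm (adjusted p = 0.000704). The spliced CLK1-201, the coding form, was at 44.34, 51.97 and 48.22 CPM in cytoplasm and 21.17, 23.71 and 18.87 CPM in nucleus, and rose by 1.42 ± 0.369 (adjusted p = 0.0209). That call was lost on leaving out 4 of the 6 libraries in turn and with total counts (1.08, adjusted p = 0.0661), and on log2(TPM + 1) the value was 0.03 (adjusted p = 0.967). On chromatin CLK1-201 stood at 54.13 CPM in replicate 1 and at 19.71 and 19.79 CPM in the others. The mesoderm gene sum, which adds both forms, did not pass the test between cytoplasm and nucleus.

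In the combined assembly of ectoderm, CLK1-210 was at 22.31, 14.13 and 15.71 CPM in cytoplasm, 11.08, 6.28 and 15.6 CPM in nucleus, 60.72, 59.98 and 60.93 CPM in nucleoplasm and 75.9, 95.63 and 69.0 CPM on chromatin. It was higher on chromatin than in cytoplasm by 1.98 ± 0.292 (adjusted p = 0.000972). CLK1-201 had the opposite order, at 37.16, 40.52 and 43.12 CPM in cytoplasm and 17.85, 22.4 and 19.81 CPM on chromatin (log2 -1.24 ± 0.208, adjusted p = 0.0021). CLK1-201 was also lower on chromatin than in nucleoplasm (log2 -1.08 ± 0.207, adjusted p = 0.0133), while CLK1-210 changed by 0.27 ± 0.282 there (adjusted p = 0.675). Between cytoplasm and nucleus CLK1-201 was higher in the cytoplasm (log2 1.41 ± 0.209, adjusted p = 0.00283) and CLK1-210 was not called (0.66 ± 0.287, adjusted p = 0.224), its values overlapping between the fractions. Of all rows of the combined assembly 7.20% were called between cytoplasm and nucleus, 7.68% between chromatin and nucleoplasm and 19.4% between chromatin and cytoplasm. The tests of chromatin against cytoplasm on transcript rows, and the tests on rows of the combined assembly, were added after values had been seen.

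**Figure D4:**
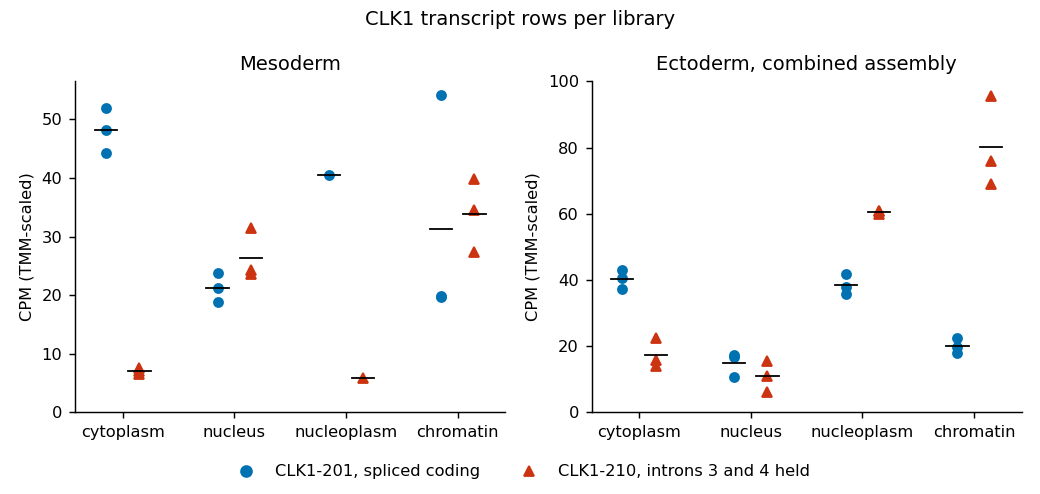
CPM (TMM-scaled, linear axis from 0) of CLK1-201, the spliced coding form (circles), and CLK1-210, which holds introns 3 and 4 (triangles), per library in each fraction for mesoderm and for ectoderm in the combined assembly; bars are means. In mesoderm CLK1-210 lies at 6.531 to 7.519 CPM in cytoplasm and at 27.43 to 39.75 CPM on chromatin.

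Among CLK2 rows, the long ones of hPSC and endoderm were called lower in the cytoplasm than in the nucleus. Of the 2 long CLK2 rows of mesoderm only MES.1158.5 was called. The endoderm row END.1031.4, 1.568 times the reference length, was at 1.873, 1.302 and 3.043 CPM in cytoplasm, 34.69, 41.41 and 43.63 CPM in nucleus, 9.85, 6.328 and 11.95 CPM in nucleoplasm and 66.08, 104.7 and 73.49 CPM on chromatin. The 4 fractions did not overlap, and the row changed by -4.04 ± 0.36 between cytoplasm and nucleus (adjusted p = 1.01e-05) and by 2.93 between chromatin and nucleoplasm (adjusted p = 0.000113). A second endoderm row, END.1031.7 (1.504 times), was at 0.2036, 0.6508 and 0.8082 CPM in cytoplasm and 12.02, 13.98 and 11.39 CPM in nucleus (log2 -4.25 ± 0.507, adjusted p = 6.9e-05). The shorter annotated row CLK2-203 of endoderm changed by 0.21 ± 0.276 between cytoplasm and nucleus (adjusted p = 0.59) and by -0.31 ± 0.276 between chromatin and cytoplasm (adjusted p = 0.382). Calls in endoderm were not limited to long rows. Of its 7 CLK rows that were not long, CLK3 rows included, 1 was lower in cytoplasm than in nucleus, where 22.9% of all rows were. On chromatin 3 of the 7, with END.1031.2 of CLK2 among them, were higher than in nucleoplasm (11.8% of all rows), and 2 were higher than in cytoplasm (25.3%). In hPSC the long row ESC.1154.6 (1.637 times) stood at 5.33, 5.369 and 5.986 CPM in cytoplasm, 19.95, 16.33 and 20.93 CPM in nucleus and 20.26, 25.39 and 40.09 CPM on chromatin, and fell by 1.73 ± 0.273 between cytoplasm and nucleus (adjusted p = 0.000637). The other long hPSC row, ESC.1154.3, was lower in cytoplasm by 2.77 ± 0.778 (adjusted p = 0.0167), while CLK2-203 in hPSC changed by -0.01 ± 0.223 (adjusted p = 0.975). In mesoderm the long row MES.1158.5 was at 2.828, 5.017 and 5.322 CPM in cytoplasm and 15.07, 31.21 and 16.52 CPM in nucleus (log2 -2.02 ± 0.472, adjusted p = 0.0136).

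In ectoderm edgeR called 0 of 3 long CLK2 rows between cytoplasm and nucleus, 1 of them at an unadjusted p under 0.05. That row, ECT.1498.4, changed by -0.94 (adjusted p = 0.172) and was called by DESeq2 (-0.97, adjusted p = 0.0447). ECT.1498.4 (1.621 times) was at 1.123, 3.862 and 2.555 CPM in cytoplasm, 7.274, 2.956 and 4.42 CPM in nucleus and 29.79, 28.75 and 28.43 CPM on chromatin (chromatin against cytoplasm 3.39, adjusted p = 0.000272), and ECT.1498.7 (2.551 times) at 3.171, 2.776 and 2.874 CPM in cytoplasm and 18.53, 16.85 and 17.25 CPM on chromatin (2.44). Against nucleoplasm, ECT.1498.7 was higher on chromatin by 1.82 (adjusted p = 0.00599) and ECT.1498.4 by 1.80 (adjusted p = 0.0168), the latter a call lost in each of the 6 fits without a library. CLK2-203 in ectoderm was itself lower in the cytoplasm than in the nucleus (log2 -0.90 ± 0.239, adjusted p = 0.0324), a call lost with total counts (0.225), by limma (0.345) and in 4 fits without a library.

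In endoderm the intron-holding form of CLK3 was lowest in the cytoplasm and highest on chromatin. CLK3-203, which holds intron 3, was there at 1.14, 1.488 and 1.426 CPM in cytoplasm, 14.55, 16.18 and 24.13 CPM in nucleus, 6.538, 5.449 and 5.54 CPM in nucleoplasm and 36.23, 38.66 and 32.29 CPM on chromatin. No 2 fractions overlapped. It changed by -3.53 ± 0.255 between cytoplasm and nucleus (adjusted p = 2.72e-06), 2.42 ± 0.242 between chromatin and nucleoplasm (4.63e-05) and 4.42 ± 0.265 between chromatin and cytoplasm (5.8e-07). The spliced CLK3-202 in endoderm was at 14.82, 14.64 and 13.69 CPM in cytoplasm, 4.85, 6.581 and 5.212 CPM in nucleus and 0, 4.236 and 7.702 CPM on chromatin, and its changes of 1.60 ± 1.05 (cytoplasm against nucleus, adjusted p = 0.258) and -2.15 ± 1.07 (chromatin against cytoplasm, adjusted p = 0.12) were not called. In ectoderm CLK3-203 was higher on chromatin than in cytoplasm by 1.48 ± 0.342 (adjusted p = 0.00849) while CLK3-202 fell by 1.26 ± 0.176 (adjusted p = 0.000437), from 41.36, 48.64 and 50.83 CPM to 21.65, 24.49 and 18.42 CPM. In mesoderm CLK3-202 also fell on chromatin, by 0.96 ± 0.251 (adjusted p = 0.0165), and CLK3-203 was not called (0.42 ± 0.625, adjusted p = 0.631), but another long row, MES.12575.3 (2.352 times), rose by 3.36 (adjusted p = 0.000934) and was lower in cytoplasm than in nucleus by 2.68 ± 0.422 (adjusted p = 0.00262). In hPSC the 1 long CLK3 row, ESC.11650.2, was higher on chromatin than in nucleoplasm by 1.07 (adjusted p = 0.0233), a call lost in 5 of 6 fits without a library.

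On the separate ectoderm and mesoderm assemblies edgeR called 0 CLK4 rows in the 3 comparisons of fractions, and 4 tests had an unadjusted p under 0.05. Other tests made calls between ectoderm cytoplasm and nucleus. There ECT.7867.2, at 2.20 by edgeR (adjusted p = 0.0772), was called by DESeq2 (2.18, 0.00535) and limma (1.67, 0.0227). ECT.7867.4, at 6.86 by edgeR (adjusted p = 0.0518), was called by DESeq2 (5.76, 0.00351) and with total counts (6.86, 0.0444). By limma ECT.7867.3 (1.75, adjusted p = 0.0479) and, lower in the cytoplasm in mesoderm, MES.5397.4 (-0.74, 0.0305) were called too. ECT.7867.1 was higher by limma on chromatin than in nucleoplasm (0.84, 0.0234). The median of all rows by limma was -0.679 in that mesoderm comparison and 0.449 between ectoderm chromatin and nucleoplasm. In mesoderm CLK4-203, which holds introns 3 and 4, was at 1.414, 0.6194 and 0.887 CPM in cytoplasm, 5.725, 4.018 and 0 CPM in nucleus and 1.804, 4.658 and 7.218 CPM on chromatin, with changes of -1.50 ± 1.32 (cytoplasm against nucleus, adjusted p = 0.421) and 1.85 ± 1.33 (chromatin against cytoplasm, adjusted p = 0.3). CLK4-201, the coding form, was at 5.398, 4.584 and 4.999 CPM in mesoderm cytoplasm and 1.444, 3.683 and 0 CPM on chromatin. Each of these rows had a library at 0. In the combined assembly of ectoderm CLK4-201 was lower on chromatin than in cytoplasm by 1.64 ± 0.487 (adjusted p = 0.0398), at 8.165, 6.831 and 12.24 CPM in cytoplasm and 2.965, 5.169 and 2.107 CPM on chromatin. The long row hEDT_00076221 was higher there, by 1.40 ± 0.404 (adjusted p = 0.0355).

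Counted over the 4 tables, 58 of the 61 CLK rows could be tested between cytoplasm and nucleus, and 14 were called, 3 higher and 11 lower in the cytoplasm. Of all transcript rows 39.7% were called for hPSC, 13.7% for ectoderm, 42.1% for endoderm and 32.0% for mesoderm, with 19.6%, 7.03%, 19.3% and 15.3% called higher and 20.0%, 6.62%, 22.9% and 16.8% called lower. Among 23 long CLK rows 9 were lower and 0 higher, and among 31 rows that were not long 2 were lower and 1 higher. The other 2 calls, both higher, were the single CLK1 rows of hPSC and ectoderm, which had no coding row to set their length against. Between chromatin and nucleoplasm 12 of 42 tested rows were called, all higher on chromatin, 8 of 16 long and 4 of 23 others, where 9.75%, 13.9% and 29.9% of all rows in hPSC, ectoderm and endoderm were called and 6.08%, 4.51% and 11.8% were called higher. Between chromatin and cytoplasm 20 of 58 rows were called. These were 14 of 23 long rows, all higher on chromatin, and 3 higher and 2 lower among the 31 others, and the single CLK1 row of ectoderm, where 38.8%, 28.0%, 49.7% and 40.4% of all rows were called in hPSC, ectoderm, endoderm and mesoderm. Of all rows 22.1%, 12.2%, 25.3% and 20.7% were called higher and 16.7%, 15.9%, 24.4% and 19.8% lower there. Rows of 1 gene share its reads, and the long limit was chosen with these values known, so the counts are a description.

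**Figure D5:**
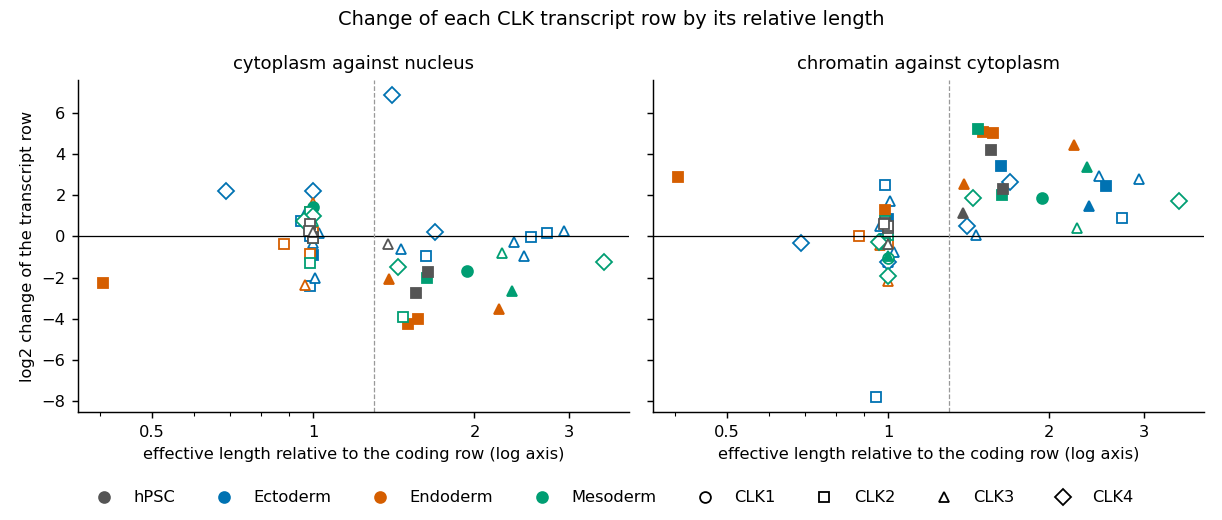
Log2 change of each CLK transcript row of the cell types' own assemblies (vertical axis) against its effective length relative to the reference coding row (horizontal axis, log scale; dashed line at 1.3), for cytoplasm against nucleus and chromatin against cytoplasm; shapes are genes, colours cell types, and filled points were called. To the right of the line no called row lies above 0 on the left panel (0 of 23 tested) and none lies below 0 on the right panel.

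A row's usage, its change relative to the other rows of the gene, asks whether the mixture of forms differed. Between cytoplasm and nucleus 5 of 55 CLK rows were called (diffSpliceDGE of edgeR), all long rows of lower usage in the cytoplasm, where 2.63% of all rows were called for hPSC, 0.353% for ectoderm, 4.57% for endoderm and 2.80% for mesoderm, and 1.69%, 0.110%, 3.66% and 2.27% had lower usage. They were END.1031.4 (log2 -2.95, adjusted p = 1.68e-06) and END.1031.7 (-3.17, adjusted p = 0.00699) of CLK2 in endoderm, ESC.1154.3 of CLK2 in hPSC (-2.33, 0.0117), and CLK1-210 (-2.12 ± 0.409, 0.0178) and MES.12575.3 of CLK3 (-2.79, 0.0312) in mesoderm. Both mesoderm calls were lost in 5 of 6 fits without a library, for CLK1-210 with adjusted p up to 0.108, the hPSC call in 3 fits, and the END.1031.7 call without cytoplasm replicate 1 (0.102). Between chromatin and nucleoplasm 0 of 39 rows were called by edgeR, 5 at an unadjusted p under 0.05 and 5 by limma, where edgeR called 0.425%, 0.683% and 2.92% of all rows. Between chromatin and cytoplasm 10 of 55 rows were called, 7 long rows of higher usage on chromatin and 3 other rows of lower usage, where 3.58%, 2.91%, 12.4% and 8.12% of all rows were called in hPSC, ectoderm, endoderm and mesoderm, with 2.38%, 1.40%, 7.66% and 6.44% higher and 1.20%, 1.51%, 4.75% and 1.68% lower. Among them were CLK3-203 (log2 2.94, adjusted p = 0.00888) and CLK3-202 (-3.63, 0.0136) in endoderm and CLK1-210 in mesoderm (2.04, 0.0115).

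Between cell types, CLK1 and CLK3 were higher in ectoderm and mesoderm than in hPSC in most fractions, and CLK2 was lower in ectoderm in 3 of 4 fractions. These levels were scaled over all 46 libraries on the 10701 genes common to the 4 tables, which were assembled separately, so a gene's level also depends on which of its transcripts each table lists. All comparisons share the hPSC libraries, and CLK4 entered none. In cytoplasm CLK1 was at 32.33, 21.6 and 17.25 CPM in hPSC, 80.05, 73.29 and 80.47 CPM in ectoderm, 22.64, 23.34 and 19.09 CPM in endoderm and 50.39, 56.74 and 52.67 CPM in mesoderm. Ectoderm was highest and mesoderm next, without overlap, while endoderm and hPSC overlapped. CLK1 was higher by 1.74 ± 0.171 in ectoderm (adjusted p = 2.31e-07) and 1.19 ± 0.17 in mesoderm (1.98e-05). In endoderm CLK1 changed by -0.11 (0.618), or 1.71 on log2(TPM + 1). Its mean cytoplasmic count of 271.0 stood for 7.32 TPM in hPSC, and 396.3 for 26.14 TPM in endoderm. TPM depends on the length of the single CLK1 row in each table, and the part of that length was not tested. CLK3 was higher by 1.29 ± 0.138 in ectoderm (6.34e-07) and 0.53 ± 0.139 in mesoderm (0.00354), and CLK2 lower by 0.69 ± 0.115 (5.56e-05) and 0.37 ± 0.114 (0.0105). In endoderm cytoplasm 0 of the 3 genes were called by edgeR, and 0 had an unadjusted p under 0.05. Without hPSC cytoplasm replicate 2, CLK2 there changed by -0.39 (adjusted p = 0.00858). In cytoplasm 76.0% of all genes were called in ectoderm, 58.1% in endoderm and 68.1% in mesoderm.

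On chromatin CLK1 was at 32.7, 29.77 and 27.36 CPM in hPSC, 158.1, 203.0 and 146.1 CPM in ectoderm, 57.75, 47.51 and 51.26 CPM in endoderm and 83.14, 63.09 and 56.69 CPM in mesoderm. Ectoderm was far above the rest, and endoderm and mesoderm overlapped. CLK1 rose by 2.56 ± 0.191 in ectoderm (adjusted p = 9.23e-08), 0.86 ± 0.185 in endoderm (0.00118) and 1.29 ± 0.186 in mesoderm (6.54e-05). CLK3 chromatin levels were 30.63, 26.5 and 39.04 CPM in hPSC, against 89.14, 96.12 and 95.21 CPM in ectoderm, 82.46, 87.23 and 94.47 CPM in endoderm and 61.99, 55.51 and 39.9 CPM in mesoderm, and CLK3 rose by 1.61 ± 0.192 (6.75e-06), 1.52 ± 0.192 (1.65e-05) and 0.83 ± 0.191 (0.00239). CLK2 was called in none of the 3 cell types on chromatin, with changes of -0.49 (0.0883), 0.47 (0.101) and -0.25 (0.397). Its hPSC values of 135.3, 138.2 and 244.3 CPM are spread by replicate 3, and without that library endoderm was higher by 0.79 (adjusted p = 0.0044). Without hPSC chromatin replicate 1 the ectoderm CLK2 change was called (0.0489). On chromatin 62.9%, 61.9% and 54.6% of all genes were called in ectoderm, endoderm and mesoderm.

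In nucleoplasm CLK1 was higher in ectoderm by 2.37 ± 0.084 (adjusted p = 7.72e-18), at 147.9, 138.9 and 150.7 CPM against 28.72, 31.41 and 29.49 CPM in hPSC. In endoderm, at 28.08, 30.69 and 30.68 CPM, CLK1 changed by -0.06 (0.539), or 1.26 on log2(TPM + 1). The part of row length in that TPM value was not tested either. CLK3 was higher in ectoderm by 1.82 ± 0.098 (2.3e-14) and in endoderm by 0.49 ± 0.106 (0.000197), where the change was -0.09 with total counts and 0.02 (0.903) on log2(TPM + 1), and CLK2 was lower by 0.52 ± 0.093 (1.74e-05) and 0.43 ± 0.094 (0.000224). Nucleoplasm calls covered 79.6% of all genes in ectoderm and 77.1% in endoderm. In nucleus CLK3 was higher in ectoderm by 1.46 ± 0.168 (5.73e-06), in endoderm by 1.09 ± 0.168 (0.000106) and in mesoderm by 0.70 ± 0.167 (0.00309), where 57.6%, 57.4% and 54.1% of all genes were called. On log2(TPM + 1) the endoderm CLK3 value was 0.30 (adjusted p = 0.238). Nuclear CLK2 was lower in ectoderm by 0.92 ± 0.15 (0.000128) and higher in endoderm by 0.51 ± 0.148 (0.0098), a value of 0.14 (0.565) with total counts. Nuclear CLK1 rose in mesoderm by 1.59 ± 0.504 (0.0161), a call lost without hPSC nucleus replicate 3 (0.057), and changed by 0.76 ± 0.5 in ectoderm (0.204).

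Whether the cytoplasm-to-nucleus ratio itself differed from hPSC was tested as an interaction. Of 9 tests 2 were called, both lower in endoderm, where 38.0% of all genes were called and 18.3% were called lower, against 51.9% in ectoderm and 25.6% in mesoderm. The ratio of CLK3 was lower in endoderm by 1.17 ± 0.22 (adjusted p = 0.000484) and that of CLK2 by 0.77 ± 0.188 (adjusted p = 0.00361). With total counts the CLK2 value was -0.28 (adjusted p = 0.358), and on log2(TPM + 1) the CLK3 value was -0.12 (adjusted p = 0.726). For CLK1 the change of ratio was 1.02 in ectoderm (adjusted p = 0.132), -0.11 in endoderm and -0.29 in mesoderm.

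Of the genes of the SR proteins, the substrates of the CLK kinases, 9 or 10 of 14 were called higher in the cytoplasm in hPSC, ectoderm and endoderm, where 35.0%, 27.2% and 34.4% of all genes were called higher. Of 14 SR-protein genes, 10 were higher and 0 lower in the cytoplasm than in the nucleus of hPSC (median 0.76, against 0.10 over all genes), 9 and 0 in ectoderm (0.41 against 0.01), 10 and 2 in endoderm (1.00 against 0.01) and 5 and 4 in mesoderm (-0.05 against 0.00), where 31.8% of all genes were called higher and 31.5% lower. SRSF3, an SR protein active in splicing and export, was higher in endoderm cytoplasm by 1.53 ± 0.133 (adjusted p = 1.07e-07), and SRSF5 was lower by 1.26 ± 0.242 (adjusted p = 0.000295). On chromatin against cytoplasm 2, 6, 4 and 5 SR genes were higher and 6, 6, 6 and 5 lower in hPSC, ectoderm, endoderm and mesoderm, where 63.5%, 60.8%, 73.0% and 66.4% of all genes were called. The SR medians of -0.18, 0.11, -0.26 and 0.09 stood against 0.09, 0.01, 0.05 and 0.02 over all genes. SRSF5 was higher on endoderm chromatin by 2.45 ± 0.251 (adjusted p = 5.19e-07) and SRSF9 lower by 2.35 ± 0.145 (adjusted p = 3.37e-09).

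Of 9 other kinases of the SR-protein kinase and DYRK families, 7, 8, 5 and 7 were tested in hPSC, ectoderm, endoderm and mesoderm, and 3, 4, 4 and 3 were higher in the cytoplasm than in the nucleus against 0, 1, 0 and 2 lower. Of all genes 35.0%, 27.2%, 34.4% and 31.8% were called higher there and 30.4%, 26.5%, 35.5% and 31.5% lower. The medians of these kinases were 0.34, 0.55, 0.69 and 0.02, against 0.10, 0.01, 0.01 and 0.00 over all genes. On chromatin against cytoplasm 2, 3, 1 and 2 of these kinases were higher and 0, 1, 1 and 3 lower, where 63.5%, 60.8%, 73.0% and 66.4% of all genes were called. PRPF4B, a spliceosomal kinase, was higher on chromatin in each cell type. Its log2 change was 0.83 ± 0.202 in hPSC (adjusted p = 0.00275), 0.85 ± 0.28 in ectoderm (0.0181), 1.55 ± 0.274 in endoderm (0.000127) and 1.29 ± 0.144 in mesoderm (2.29e-05).

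Of 6 other genes known for detained or regulated introns, 5 or 6 were called higher on chromatin than in cytoplasm in ectoderm, endoderm and mesoderm, where 29.0%, 37.7% and 33.9% of all genes were called higher, and 3 in hPSC, where 35.2% were. In this comparison 3 were higher and 0 lower in hPSC (median 0.55, against 0.09 over all genes), 5 and 1 in ectoderm (0.90 against 0.01), 5 and 0 in endoderm (2.10 against 0.05) and 6 and 0 in mesoderm (1.08 against 0.02). OGT, the O-GlcNAc transferase, was higher on chromatin by 2.10 ± 0.199 for hPSC (adjusted p = 1.32e-06), 1.46 ± 0.159 for ectoderm (4.07e-06), 3.57 ± 0.288 for endoderm (4.25e-08) and 2.14 ± 0.259 for mesoderm (3.75e-05). RBM5, a splicing regulator, was higher by 0.89 ± 0.168 in hPSC (0.000399) and 2.65 ± 0.209 in endoderm (3.47e-08), and MAT2A, which makes S-adenosylmethionine, by 2.50 ± 0.236 in endoderm (2.11e-07). Between cytoplasm and nucleus 1 of the 6 was higher and 3 lower in hPSC, 2 and 1 in ectoderm, 0 and 4 in endoderm and 0 and 6 in mesoderm, where 30.4%, 26.5%, 35.5% and 31.5% of all genes were called lower. Their medians were -0.33, 0.35, -1.51 and -0.98, against 0.10, 0.01, 0.01 and 0.00 over all genes. Of 10 factors of nonsense-mediated decay, the pathway that degrades RNAs with early stop codons, 2, 4, 2 and 2 were higher and 2, 5, 5 and 4 lower in the same comparison in hPSC, ectoderm, endoderm and mesoderm, where 65.4%, 53.7%, 69.8% and 63.3% of all genes were called. Their medians were -0.01, -0.14, -0.02 and -0.41. Among them UPF3B was higher in the cytoplasm by 1.92 ± 0.236 for hPSC (1.03e-05), 2.25 ± 0.24 for ectoderm (6.67e-06), 2.46 ± 0.347 for endoderm (1.59e-05) and 0.96 ± 0.144 for mesoderm (0.000158). UPF1 went the other way, with changes of -0.33 ± 0.121 for hPSC (0.0271), -1.08 ± 0.163 for endoderm (3.19e-05) and -1.06 ± 0.171 for mesoderm (0.000266).

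Over the 16 groups, the gene whose group means were most like those of CLK1 was APPBP2 (Pearson r = 0.9565, of 9359 genes), then CROT (0.9502) and PLEKHA1 (0.9501). CLK2 was most like ULK3 (0.9801), RHOT2 (0.971) and HAUS5 (0.9668), and CLK3 most like WDR13 (0.9648), PPP2R5B (0.9545) and ING4 (0.9533). Among the kinases themselves r was -0.1639 between CLK1 and CLK2, 0.514 between CLK1 and CLK3 and 0.2362 between CLK2 and CLK3. These values describe 16 groups that share libraries' scaling and 4 separate assemblies, and carry no test.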

How the data were processed

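RNA-seq libraries of 4 cell types and their subcellular fractions were analysed from tables on transcripts assembled separately for each cell type. Per the submitters' processing notes STAR, RSEM and hg38 were used, with no versions or settings given there. The authors deposited expected counts, here whole numbers, and TPM values, length-corrected shares that sum to the same total in each library. The counting uncertainty between isoforms of a gene is not in these counts. There was 1 column per measure that matched no sample, and it was not used. Transcript rows were summed per gene.

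Computed here from the counts: edgeR 4.0.16 in R 4.3.3 (TMM scaling, genes or rows with low counts removed by filterByExpr with a minimum count of 10, quasi-likelihood test, Benjamini-Hochberg adjustment over all features of a table, call at an adjusted p under 0.05, SE from the log2 change and its F value), with all groups of a cell type in 1 fit and without a replicate block. Row usage used diffSpliceDGE. Alternatives were scaling by total counts, no filter, the replicate block, DESeq2 1.42.0, limma 3.58.1 on log2(TPM + 1), only the groups compared, the combined assembly for ectoderm and each library left out. The scripts were tested on simulated data. Counts differed in each of the 45 replicate pairs, with chi-squared over its degrees of freedom of at least 4.424. Over all pairs of fractions in a cell type, the deviations of same-numbered libraries had a median r from -0.06605 to 0.05235. Single same-numbered pairs ran from -0.5253 to 0.3379 and other pairs from -0.4356 to 0.5473. With groups of at most 3 libraries these values cannot settle whether the numbers pair the libraries. Effective lengths used counts of at least 20 and TPM of at least 1. Gene models, introns and sequences came from GENCODE release 29.

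All 4 genes are named as gene sums. Rows were picked from those that held at least 10% of the gene's counts in a group or were called, and not every such row is named. Up to 4 called genes of each pathway list are named where a group mean reached 10 CPM. The members and lists were chosen with earlier results of these data known. Depth limits the low rows: a row listed at 0 may hold up to 3 counts.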

Additional observations from a re-analysis of the deposited data

Results flagged for a closer look

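The cytoplasm-to-nucleus ratio differed between endoderm and hPSC for 2 of the kinases by a test of the difference itself. For CLK3 the ratio was lower in endoderm by -1.168 on the log2 scale, and for CLK2 by -0.766. In both cases the 3 endoderm nucleus libraries lay above the 3 endoderm cytoplasm libraries. Of the 4 cell types, endoderm is also the one whose cytoplasm-to-nucleus median of all genes moved most when scaled by total counts, by 0.70. The part of the scaling in the difference was not tested beyond the values given above, -0.278 for CLK2 with total counts and -0.124 for CLK3 on log2(TPM + 1).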

How the results depend on the processing

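Of the results for single genes and rows, 250 kept their direction and side of the threshold with total counts, where 15 gained a call, 7 lost one and 2 reversed. With limma on log2(TPM + 1) 214 kept both, 40 gained a call, 12 lost one and 8 reversed. With no filter 273 kept both and 1 lost its call. DESeq2 was not run for usage, so it covered fewer results, of which 168 kept both and 12 gained a call. Of the fits without a library, 1621 kept both, 14 gained a call and 63 lost one. With total counts the changes that reversed were CLK3 ectoderm cytoplasm against nucleus (0.02) and CLK3 endoderm against hPSC nucleoplasm (-0.092). With limma on log2(TPM + 1) they were CLK3 ectoderm (0.006), CLK1 mesoderm (-0.572) and CLK4 mesoderm (-0.808) for cytoplasm against nucleus, CLK4 ectoderm chromatin against cytoplasm (0.788), CLK1 endoderm against hPSC in cytoplasm (1.71) and nucleoplasm (1.257), CLK2 mesoderm against hPSC in nucleus (0.808) and the CLK2 row ECT.1498.2 chromatin against nucleoplasm (0.744). The median of all genes was itself -0.824 in the mesoderm cytoplasm-to-nucleus comparison on that scale. It was 0.342 to 0.853 for chromatin against cytoplasm over the cell types, and 0.778 for mesoderm against hPSC in nucleus. The cause was not tested. Counts of calls moved with limma to 14 gene sums for chromatin against cytoplasm (8 in the report), 1 ratio (2), 25 rows for chromatin against nucleoplasm (12), 10 rows by usage for cytoplasm against nucleus (5) and 5 by usage for chromatin against nucleoplasm (0), and with total counts to 1 ratio (2). Without 1 library the gene-sum calls were 7 to 10 for cytoplasm against nucleus, 6 to 6 for chromatin against nucleoplasm, 7 to 10 for chromatin against cytoplasm, 22 to 24 between cell types and 2 to 2 for the ratio, row calls were 13 to 15 and 10 to 12, and usage calls 3 to 6 and 0 to 0. With the replicate number as a block, calls were 8 of cytoplasm against nucleus (9 in the report), 6 of chromatin against nucleoplasm (6) and 9 of chromatin against cytoplasm (8), 23 between cell types (23) and 2 ratios (2), and rows 13 (14), 10 (12) and, by usage, 6 (5) and 0 (0). The block changed the call of hPSC CLK2 between cytoplasm and nucleus (-0.482, adjusted p = 0.053) and of mesoderm CLK4 between chromatin and cytoplasm (0.449, adjusted p = 0.0484). It ended the calls of ectoderm CLK2-203 between cytoplasm and nucleus (0.071) and, between chromatin and nucleoplasm, of ESC.11650.2 of CLK3 (0.0502) and END.1031.2 of CLK2 (0.0719), and END.1031.5 of CLK2 gained one by usage between cytoplasm and nucleus (0.0198). The other 268 single results kept their direction and side of the threshold under the block. Low counts limit the CLK4 rows and the rows listed at 0.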
